A study of Homo sapiens with 4 samples.

Results

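Epithelial-mesenchymal transition (EMT) is described here through 10 genes chosen by name: the transcription factors SNAI1, SNAI2, ZEB1, ZEB2 and TWIST1, the mesenchymal markers VIM, FN1, CDH11 and CDH2, and the epithelial marker CDH1. All 10 were found among the 58735 genes of the count table, and 7 of them had a mean of at least 1 CPM (read counts scaled to library size) over the 4 libraries, the minimum for a comparison. The cells were MDA-MB-231, an established triple-negative breast cancer line transduced with TetOn-H2BeGFP, a histone H2B-eGFP reporter switched on by doxycycline. All 4 groups came from cells given doxycycline at 5 μg/ml for 3 days, stained with a Claret and a Violet dye, and chased for 12 days, over which dividing cells dilute each label. The Claret, eGFP and Violet groups are slow-cycling cells, sorted as the 1% retaining most of that label, and Bulk cells passed the sorter without a fluorescence gate. Each group is 1 library, so no difference below has a replicate check, and the intervals cover counting error only.

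Libraries are named by their titles, which match the column names of both deposited tables. The treatment field of every sample names a different sort from its title, so that the library titled Violet is un-gated there and the library titled Bulk is Claret. Summed counts were 15508179 to 16976909. The 5 marker genes of cycling cells (MKI67, TOP2A, CCNB1, PCNA and MCM2) together held 1865 CPM in Bulk and 305 to 389 CPM in the slow-cycling libraries. The proliferation gene MKI67 had 6778 reads in the library titled Bulk, called Claret in the treatment field, and 689 to 995 in the others. The mitochondrial share of reads was 4.18% in Bulk and 5.06% to 5.48% in the others. The cycling-cell genes and the mitochondrial share differ between Bulk and all 3 slow-cycling libraries, while the summed counts of Bulk lay within their range. The part of these measures in the differences of the EMT genes was not tested. For the cell line label, ESR1 had 3 to 7 reads and PGR 0 in every library, while ERBB2 was at 8.54 to 9.06 FPKM (fragment counts scaled to gene length and library size). The 5 genes that mark a mesenchymal-like line (VIM, itself one of the genes described here, CD44, AXL, CAV1 and S100A4) together held 2257 to 2500 CPM. CAV1, which encodes caveolin, lay below Bulk at log2 ratios of -0.85, -0.95 and -0.77 in Claret, eGFP and Violet. S100A4 also lay below it, at -0.35, -0.55 and -0.25. VIM lay above Bulk in all 3, and CD44 and AXL lay on both sides of it. The 3 endothelial markers held 4.0 CPM in Bulk and 4.73 to 7.15 CPM elsewhere. Of the leukocyte markers, CD3E was at 0 reads in all libraries, and PTPRC and CD68 had at most 4.

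In EMT, epithelial cells give up E-cadherin junctions and take on vimentin filaments, a fibronectin matrix and motility. SNAIL (SNAI1), SLUG (SNAI2) and the ZEB proteins bind E-box sequences in the CDH1 promoter and repress it, and TWIST1 is a basic helix-loop-helix factor that acts in the same programme. ZEB1 and ZEB2 are in turn held down in epithelial cells by microRNAs of the miR-200 family and miR-205. MDA-MB-231 is known as a mesenchymal-like line that lacks E-cadherin.

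Sequences are shown for 2 reasons: the microRNAs because their seeds define the groups that act on ZEB1 and ZEB2, and the promoters because they hold the motif that SNAIL and ZEB proteins bind or belong to the marker that differed most. The mature microRNAs (RefSeq, GRCh38.p14) are printed 5′ to 3′ with the seed, bases 2 to 8, in capitals.
hsa-miR-200b-3p: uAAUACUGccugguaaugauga
hsa-miR-200c-3p: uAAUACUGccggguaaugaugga
hsa-miR-429: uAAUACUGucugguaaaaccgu
hsa-miR-200a-3p: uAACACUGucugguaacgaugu
hsa-miR-141-3p: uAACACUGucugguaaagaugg
hsa-miR-205-5p: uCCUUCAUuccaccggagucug
The first 3 share the seed AAUACUG, the next 2 share AACACUG, and miR-205-5p has its own. The genes of miR-200b, miR-200a and miR-429 lie on chromosome 1, with that of miR-205, and those of miR-200c and miR-141 on chromosome 12. The host genes MIR200CHG and MIR205HG were not read in any of the 4 libraries, a level of at most 0.190 CPM, and neither were the table's rows for the 6 microRNA genes. Mature microRNAs are too short for this kind of library, so those rows say nothing of their level.

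RefSeq promoter windows (GRCh38.p14) were matched for 5 of the 10 genes: ZEB1, ZEB2, VIM, FN1 and CDH2. Those of SNAI1, SNAI2, TWIST1, CDH11 and CDH1 were not matched. The 250 bases before the start site nearest the gene's start in the count table were searched on both strands for the E-box CAGGTG, the AP-1 site TGAGTCA and the cAMP response element TGACGTCA. The windows of ZEB1 and FN1 held a match, shown in capitals. The window of ZEB1 is chr10:31318167-31318416 (plus strand), with CAGGTG starting 57 bases before the start site, and that of FN1 is chr2:215436069-215436318 (minus strand), with TGACGTCA starting 183 bases before it.
ZEB1: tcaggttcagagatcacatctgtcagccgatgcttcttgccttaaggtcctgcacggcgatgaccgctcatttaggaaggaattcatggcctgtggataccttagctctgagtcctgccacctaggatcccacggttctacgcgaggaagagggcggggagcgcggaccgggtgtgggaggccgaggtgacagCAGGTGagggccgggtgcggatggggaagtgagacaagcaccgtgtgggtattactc
FN1: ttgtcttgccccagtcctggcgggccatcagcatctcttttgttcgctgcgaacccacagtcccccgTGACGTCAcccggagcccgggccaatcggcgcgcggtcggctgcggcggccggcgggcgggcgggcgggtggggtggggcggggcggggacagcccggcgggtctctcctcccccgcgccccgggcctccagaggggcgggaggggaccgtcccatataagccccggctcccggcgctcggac
Of 27305 genes with a window of this length, 17.5% held CAGGTG or its reverse complement CACCTG, 4.16% held TGAGTCA or TGACTCA, and 1.77% held TGACGTCA, which reads the same on both strands. The windows of ZEB2, VIM and CDH2 held none of the 3 motifs. A match describes the letters of the window and is not evidence of binding.

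The 2 SNAIL family factors differed from Bulk in opposite directions. SNAI1 (ENSG00000124216, chromosome 20, 49982999 to 49988886, GRCh38) had 111 reads (Bulk), 247 (Claret), 320 (eGFP) and 254 (Violet). SNAI2 (ENSG00000019549, chromosome 8, 48917604 to 48921740) had 113 reads (Bulk), 55 (Claret), 41 (eGFP) and 78 (Violet). Bulk was thus the lowest of the libraries for SNAI1 and the highest for SNAI2, and eGFP was at the other end for both. RNA of sorted populations was measured, so fewer cells with a transcript and less of it per cell cannot be told apart.

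**Figure D1:**
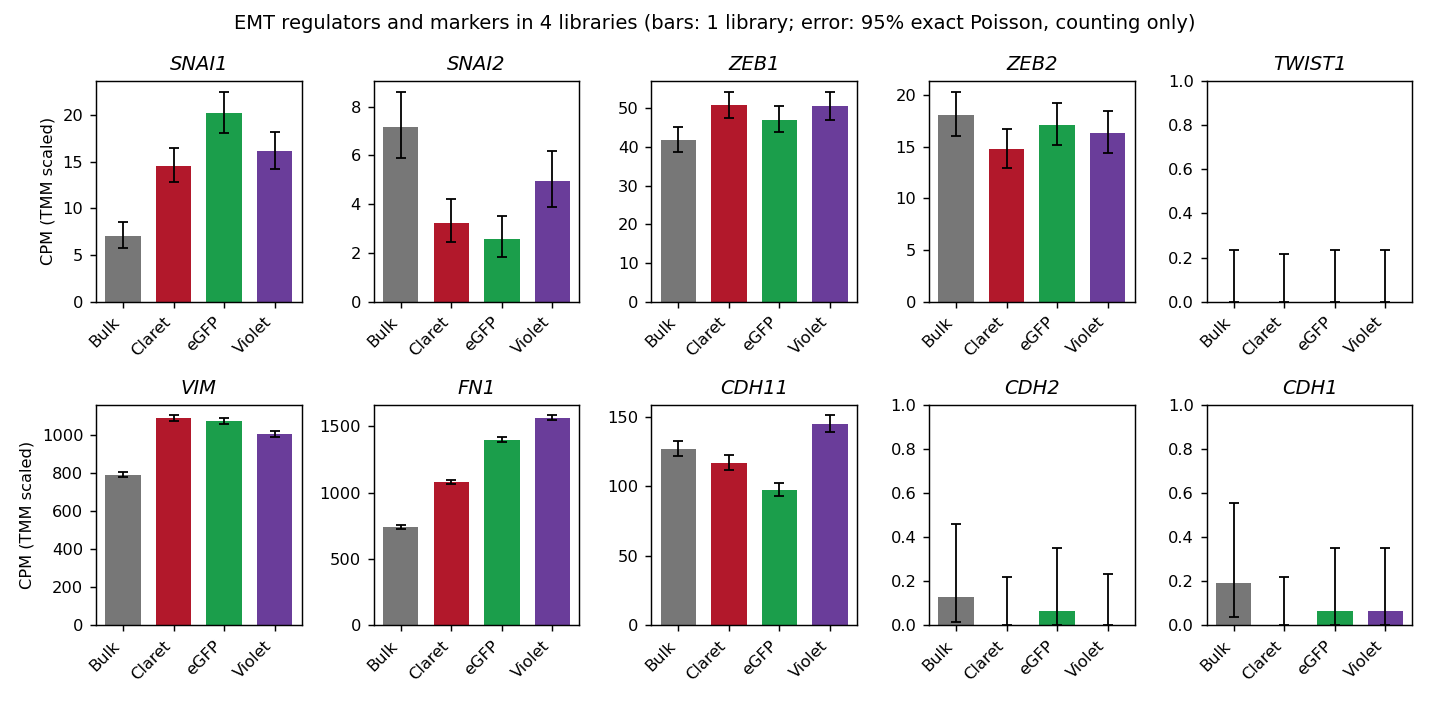
Level of each of the 10 genes in the 4 libraries, in CPM scaled by TMM, on a linear axis of its own that starts at 0. Each bar is 1 library and each error bar a 95% exact Poisson interval that covers counting error only. SNAI1 is lowest and SNAI2 highest in Bulk, FN1 runs from 741 CPM in Bulk to 1564 CPM in Violet, and TWIST1, CDH2 and CDH1 lie under 0.2 CPM throughout.

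SNAI1 rose 2.05-fold in Claret, a log2 ratio of 1.03 (95% interval 0.72 to 1.38). It rose 2.83-fold in eGFP (log2 ratio 1.5, 1.20 to 1.84) and 2.26-fold in Violet (1.18, 0.86 to 1.53). A gene was called when it differed 2-fold or more, a log2 ratio beyond 1 or -1, and the exact binomial test on the reads of both libraries had an adjusted p under 0.05 over the 14585 genes kept. That test compares the libraries and not the conditions, and all 3 comparisons share the Bulk library. The adjusted p of SNAI1 by this exact binomial test was 2.1e-10 for Claret, 1.7e-23 for eGFP and 2.3e-13 for Violet. SNAI1 was called in all 3 slow-cycling libraries, but in Claret and Violet its interval reached under 1, and on the scale log2(FPKM + 1) these values were 0.88 and 0.99, under the threshold.

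SNAI2 fell in Claret and eGFP, with log2 ratios of -1.12 (-1.64 to -0.67) and -1.43 (-2.03 to -0.95). In Violet its log2 ratio was -0.53 (-0.97 to -0.11), which was not called. On the scale log2(FPKM + 1), SNAI2 was at -0.68 in Claret and -0.84 in eGFP and was not called in either. With 41 to 113 reads per library, SNAI2 is the most thinly counted of the 7 genes compared. Both values also depend on the labels used: with groups taken from the treatment field, SNAI1 was at -1.18, -0.14 and 0.32 in Claret, eGFP and Violet, and SNAI2 at 0.53, -0.59 and -0.90. In that grouping the library with the high levels of cycling-cell genes is counted as slow-cycling.

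A ratio of 2 genes within a library does not depend on how libraries are scaled. Per base of gene length, there were 1.98 reads of SNAI1 for each of SNAI2 in Bulk (95% interval 1.51 to 2.59), 9.04 in Claret (6.72 to 12.3), 15.7 in eGFP (11.3 to 22.3) and 6.55 in Violet (5.06 to 8.56). No interval of a slow-cycling library overlapped that of Bulk. The ratio was 4.57 times that of Bulk in Claret (exact interval 3.03 to 6.91), 7.95 times in eGFP (5.14 to 12.4) and 3.32 times in Violet (2.26 to 4.85). Among the slow-cycling libraries, the intervals of eGFP and Violet did not overlap each other.

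The ZEB factors differed little from Bulk. ZEB1 (ENSG00000148516, chromosome 10, 31318495 to 31529814), a zinc-finger and homeodomain repressor, had 658 reads (Bulk), 862 (Claret), 747 (eGFP) and 798 (Violet). Its log2 ratios were 0.28 (0.14 to 0.43), 0.17 (0.02 to 0.33) and 0.27 (0.12 to 0.43), with Bulk the lowest library, and none was called. The antisense gene ZEB1-AS1 overlaps the ZEB1 start and had 53 reads in Bulk and 68 to 99 elsewhere. Whether strand was used in counting is not given in the sources used here, so reads of this overlap cannot be assigned with certainty.

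ZEB2 (ENSG00000169554, chromosome 2, 144364364 to 144524583), the close relative of ZEB1, had 285 reads (Bulk), 250 (Claret), 271 (eGFP) and 258 (Violet). Its log2 ratios were -0.29 (-0.55 to -0.05), -0.08 (-0.33 to 0.16) and -0.15 (-0.40 to 0.10), so that a difference was not detectable at this depth in eGFP and Violet. Per base of length there were 6.69 reads of ZEB1 for each of ZEB2 in Bulk, 9.99 for Claret, 7.99 for eGFP and 8.96 for Violet. The ratio was 1.49 times that of Bulk in Claret (exact interval 1.22 to 1.83) and 1.34 times in Violet (1.09 to 1.64), and in eGFP the interval of 0.98 to 1.46 included 1.

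TWIST1 (ENSG00000122691, chromosome 7, 19020991 to 19117672) had 0 reads in all 4 libraries. A count of 0 allows up to 3 reads, which is 0.177 CPM in the deepest library and 0.190 CPM in Bulk. Its relative TWIST2 had 0 reads as well.

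**Figure D2:**
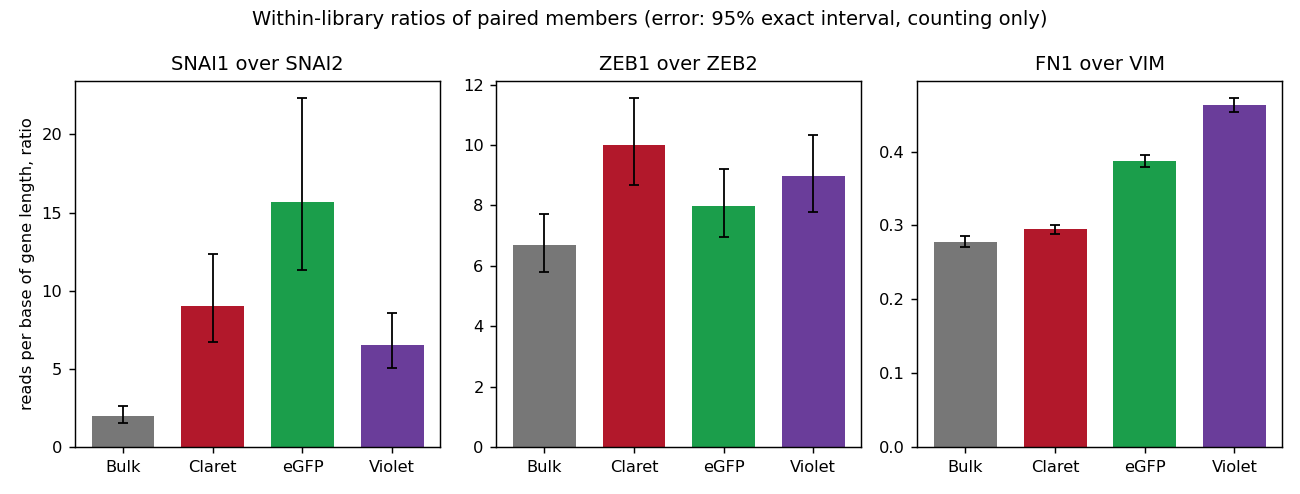
Within-library ratios of reads per base of gene length for SNAI1 over SNAI2, ZEB1 over ZEB2 and FN1 over VIM in each of the 4 libraries, with 95% exact intervals for counting error, on linear axes that start at 0. SNAI1 over SNAI2 runs from 1.98 in Bulk to 15.7 in eGFP, ZEB1 over ZEB2 from 6.69 in Bulk to 9.99 in Claret, and FN1 over VIM from 0.278 in Bulk to 0.463 in Violet.

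Of the mesenchymal markers, FN1, which encodes the matrix protein fibronectin, differed most. FN1 (ENSG00000115414, chromosome 2, 215360440 to 215436172) had 11680 reads (Bulk), 18300 (Claret), 22204 (eGFP) and 24708 (Violet). Bulk was the lowest and Violet the highest library. The log2 ratio was 0.54 (0.51 to 0.58) in Claret and 0.92 (0.88 to 0.95) in eGFP, neither called, and in Violet FN1 rose by 1.08 (1.05 to 1.11), a 2.11-fold difference. After a correction for GC content the Violet value was 0.99, under the threshold. With groups taken from the treatment field, FN1 was at -1.08, -0.54 and -0.16.

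VIM (ENSG00000026025, chromosome 10, 17228259 to 17237593) encodes vimentin, the intermediate filament of mesenchymal cells. It had 12507 reads (Bulk), 18488 (Claret), 17073 (eGFP) and 15909 (Violet). Its log2 ratios were 0.46 (0.42 to 0.49), 0.44 (0.40 to 0.47) and 0.34 (0.31 to 0.38), which exclude 0 by their counting error but were not called. VIM-AS1, which overlaps VIM on the other strand, had 40 to 56 reads. Bulk was again the lowest library for VIM, and Claret and eGFP differed by only 0.02 (-0.01 to 0.05). Per base of length there were 0.278 reads of FN1 for each of VIM in Bulk (0.271 to 0.285), 0.295 for Claret, 0.387 for eGFP and 0.463 for Violet (0.454 to 0.472), so the gap to Bulk was wider for FN1 than for VIM in each slow-cycling library, and least so in Claret.

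CDH11 (ENSG00000140937, chromosome 16, 64943753 to 65126112) encodes the type II cadherin of mesenchymal cells and osteoblasts. It had 2002 reads (Bulk), 1986 (Claret), 1550 (eGFP) and 2293 (Violet), so Bulk lay inside the range of the slow-cycling libraries. The log2 ratios were -0.12 (-0.21 to -0.03) for Claret, -0.38 (-0.48 to -0.28) for eGFP and 0.19 (0.11 to 0.28) for Violet. None was called, and their signs differ between Violet and the rest. CDH11 and FN1 therefore did not share an order, since eGFP was the lowest library for CDH11 and the second highest for FN1.

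Neither of the cadherins between which the switch of EMT is usually described was measurable. CDH1 (ENSG00000039068, chromosome 16, 68737225 to 68835548), E-cadherin, had 3 reads (Bulk), 0 (Claret), 1 (eGFP) and 1 (Violet). CDH2 (ENSG00000170558, chromosome 18, 27950966 to 28177446), N-cadherin, had 2 reads (Bulk), 0 (Claret), 1 (eGFP) and 0 (Violet). No count of either gene was above the 3 reads that a count of 0 allows, so no fold is given and a difference was not detectable at this depth.

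**Figure D3:**
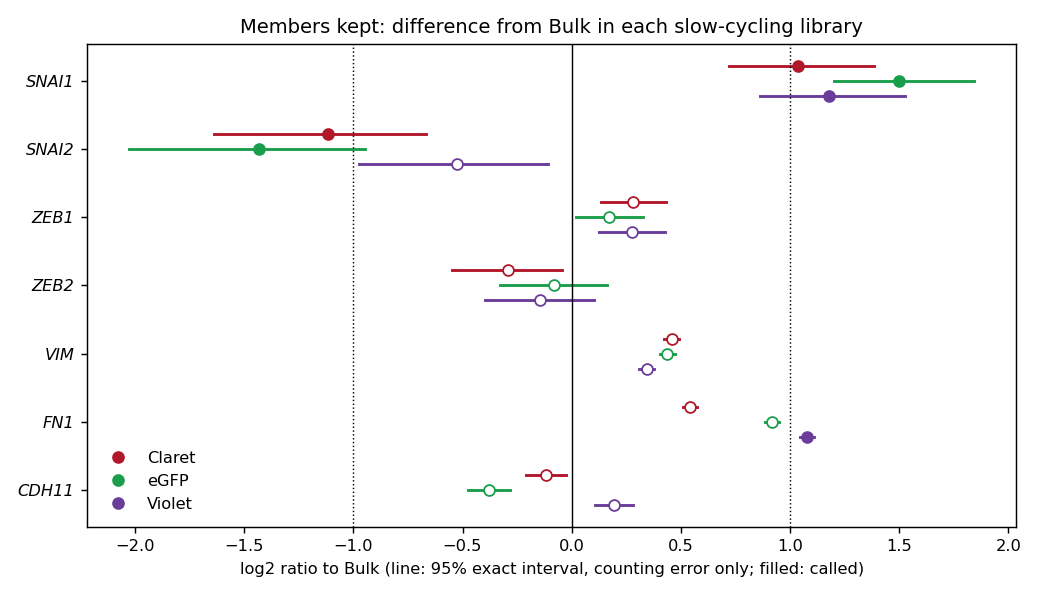
Log2 ratio to Bulk of the 7 genes kept, in Claret, eGFP and Violet, with 95% exact intervals for counting error. Dotted lines mark a log2 ratio of 1 in size and filled points are called. SNAI1 lies at 1.03 to 1.5 and SNAI2 at -1.43 to -0.53, while ZEB1, ZEB2, VIM and CDH11 lie between -0.38 and 0.46.

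Calls among the transcription factors went in both directions, and the one marker called was higher. Of the 4 transcription factors kept, 1 was called higher and 1 lower in Claret and in eGFP, and 1 higher and 0 lower in Violet. Of the 3 mesenchymal markers kept, 0 were called in Claret and eGFP and 1 was higher in Violet. Among all genes kept, 11.2% were called higher and 6.67% lower in Claret, 11.9% and 7.6% in eGFP, and 11.3% and 7.01% in Violet. In either direction these were 17.9%, 19.5% and 18.3%, so 2 called of 7 genes is not far from the background. The median log2 ratio of the transcription factors was -0.01 for Claret, 0.04 for eGFP and 0.06 for Violet, that of the mesenchymal markers 0.46, 0.44 and 0.34, and that of all genes kept -0.01, -0.01 and 0.00. SNAI1 lay above 89.3% of all genes kept in Claret, 94.2% in eGFP and 91.1% in Violet. SNAI2 lay above 5.28%, 3.47% and 19.8% in the same order.

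Between the slow-cycling libraries, 0 of the 7 genes were called in any of the 3 pairs, against 0.713% of all genes in the pair of Claret with eGFP, 0.788% in that of Claret with Violet and 0.932% in that of eGFP with Violet. The widest gap was that of SNAI2, 0.90 lower in eGFP than in Violet (log2 ratio -0.90, -1.52 to -0.37). CDH11 differed by -0.57 (-0.67 to -0.48) in the same pair and FN1 by -0.54 (-0.56 to -0.51) between Claret and Violet. SNAI1 differed by -0.47 (-0.71 to -0.23) between Claret and eGFP. For ZEB1, ZEB2 and VIM every pair of slow-cycling libraries differed by 0.21 or less in size.

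By the deposited FPKM, which scales reads to the length given for each gene, the order in Bulk was VIM, FN1, CDH11, ZEB1, SNAI1, SNAI2 and ZEB2. VIM was at 156 FPKM in Bulk, 211 for Claret, 207 for eGFP and 192 for Violet, and ranked between 117 and 157 among the 12480 protein-coding genes kept. FN1 was at 43.4, 62.3, 80.2 and 88.9 FPKM in the same order, and ranked 963 in Bulk and 306 in Violet. The factors were far lower: ZEB1 was at 4.89 to 5.87 FPKM, and ZEB2 at 0.588 to 0.732 FPKM. SNAI1 was at 4.24 FPKM in Bulk, 8.63 for Claret, 11.9 for eGFP and 9.38 for Violet, and SNAI2 at 2.14, 0.955, 0.756 and 1.43 FPKM.

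Places next to each other in this order were not all distinct. A single length per gene was used, such as 1686 bases for SNAI1, 13381 for CDH11 and 25058 for ZEB2. A shorter expressed transcript could change the order between genes, and the intervals do not cover that. In Bulk, SNAI1 had 0.865 times the reads per base of ZEB1, with an interval of 0.701 to 1.06 that includes 1. SNAI1 had 1.47 times the reads per base of ZEB1 in Claret (1.27 to 1.70) and 1.63 times in Violet (1.41 to 1.88). In eGFP it had 2.20 times those of ZEB1 (1.92 to 2.51), and it also passed CDH11 there, at 1.64 times its reads per base (1.45 to 1.85). In Claret the level of SNAI1 was 0.987 times that of CDH11 (0.861 to 1.13), and in Violet 0.879 times (0.769 to 1.00), which includes 1. SNAI2 was 2.93 times ZEB2 in Bulk (2.33 to 3.65), 1.63 times in Claret (1.19 to 2.18) and 2.23 times in Violet (1.71 to 2.89). In eGFP their ratio of 1.12 (0.784 to 1.56) did not set them apart.

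The 2 protein-coding genes with log2 ratios nearest to those of SNAI1 over the 3 libraries were TUBB4A, a beta tubulin, and PADI1, a peptidylarginine deiminase. Their Euclidean distances from SNAI1 were 0.033 and 0.046, and 3 of 12479 genes lay within 0.1. TUBB4A had 42 reads (Bulk), 95 (Claret), 121 (eGFP) and 99 (Violet). PADI1 had 15, 35, 45 and 36 reads in the same order, and with under 1 CPM in Bulk it passed the minimum level only through the slow-cycling libraries. With 3 ratios that share Bulk and counts this low, such likeness is a description only.

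Wider lists of EMT genes were then read for the same contrast. Of 14 transcription and splicing factors of the epithelial state, 8 were kept and 3 of them were called higher in each slow-cycling library, with none lower, beside 11.2%, 11.9% and 11.3% of all genes called higher. The 3 were ESRP1, ELF3 and KLF4. ESRP1, which directs epithelial splicing, had 12 reads in Bulk, against 140, 116 and 115 in the slow-cycling libraries in the order Claret, eGFP and Violet. It rose by 3.24 (2.59 to 4.42), 3.07 (2.40 to 4.26) and 3.06 (2.40 to 4.25) on the log2 scale. ESRP1 passed the minimum level only through the slow-cycling libraries, so the filter fixed that it was higher there, though not by how much. ELF3, an epithelial ETS factor, had 26 reads in Bulk, then 73, 68 and 98, with log2 ratios of 1.32, 1.31 and 1.83. KLF4, a Kruppel-like factor that activates CDH1 in mammary epithelium, had 483 reads in Bulk, then 1293, 1241 and 1153, with log2 ratios of 1.31, 1.35 and 1.25. OVOL2 and ELF5 had 0 reads in every library, and GRHL2 had 0 or 1. The median log2 ratio of the 8 kept was 0.74 for Claret, 0.26 for eGFP and 0.70 for Violet. KLF5 lay the other way, with 358 reads in Bulk, 299 to 303 elsewhere and log2 ratios of -0.34, -0.27 and -0.26. GATA3 was at -0.12, -0.36 and -0.16 and FOXA1 at 0.10, 0.13 and 0.00. GRHL1 and ESRP2 lay above Bulk in each slow-cycling library. Neither these nor KLF5, GATA3 and FOXA1 were called.

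Of 24 epithelial markers, 20 were kept, and 7 were called higher and 0 lower in each library. Among all genes, 11.2% to 11.9% were called higher and 6.67% to 7.6% lower. Of the 20, CRB3, a polarity protein, passed the minimum level only through the slow-cycling libraries, with 13 reads in Bulk and 28 to 39 elsewhere. CRB3 was among the 7 called in Claret and in Violet, so those counts rest in part on the filter. The median log2 ratio of the 20 was 0.60 for Claret, 0.57 for eGFP and 0.75 for Violet. CLDN7, CLDN1 and CD24 were called in all 3, as were KRT19 and ITGB4, named because they complete these 5 and not by rank. CLDN7, a claudin of tight junctions, had 172 reads in Bulk, against 573, 535 and 541 in the slow-cycling libraries in the order Claret, eGFP and Violet, with log2 ratios of 1.62, 1.62 and 1.64. CLDN1, another claudin, rose by 1.66, 1.58 and 1.57. CD24, a surface glycoprotein of luminal cells, had 57 reads in Bulk and 165 to 182 elsewhere, with log2 ratios of 1.41, 1.49 and 1.64. KRT19, a simple-epithelial keratin, rose by 1.54, 1.53 and 1.28, while the keratins KRT8 and KRT18 lay between -0.14 and 0.22. PKP3, a desmosomal plakophilin, lay the other way, with 1088 reads in Bulk, 632 to 737 elsewhere and log2 ratios of -0.70, -0.79 and -0.56, none called. EPCAM, an epithelial adhesion molecule, was at -0.71 in Violet, also not called.

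Of 33 mesenchymal markers, 21 were kept, and 5, 6 and 6 of these were called higher in Claret, eGFP and Violet and 0 lower in any. Their medians were 0.39, 0.52 and 0.51. ACTA2, smooth muscle actin, had 27 reads in Bulk and 74, 95 and 70 elsewhere, with log2 ratios of 1.29, 1.73 and 1.31. TNC, the matrix protein tenascin C, rose by 1.34, 1.34 and 1.11. S100A4 was at -0.35, -0.55 and -0.25 and AXL at 0.04, -0.10 and -0.25, none called. COL1A2, FAP, POSTN and LUM had 0 reads in every library. Both marker lists thus held genes called higher and none called lower. Among all genes, 11.2% to 11.9% were called higher and 6.67% to 7.6% lower, so none lower is near the background. Whether the lists differ from all genes was not tested. With groups taken from the treatment field, the medians in Claret were -0.75 for epithelial and -0.51 for mesenchymal markers.

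**Figure D4:**
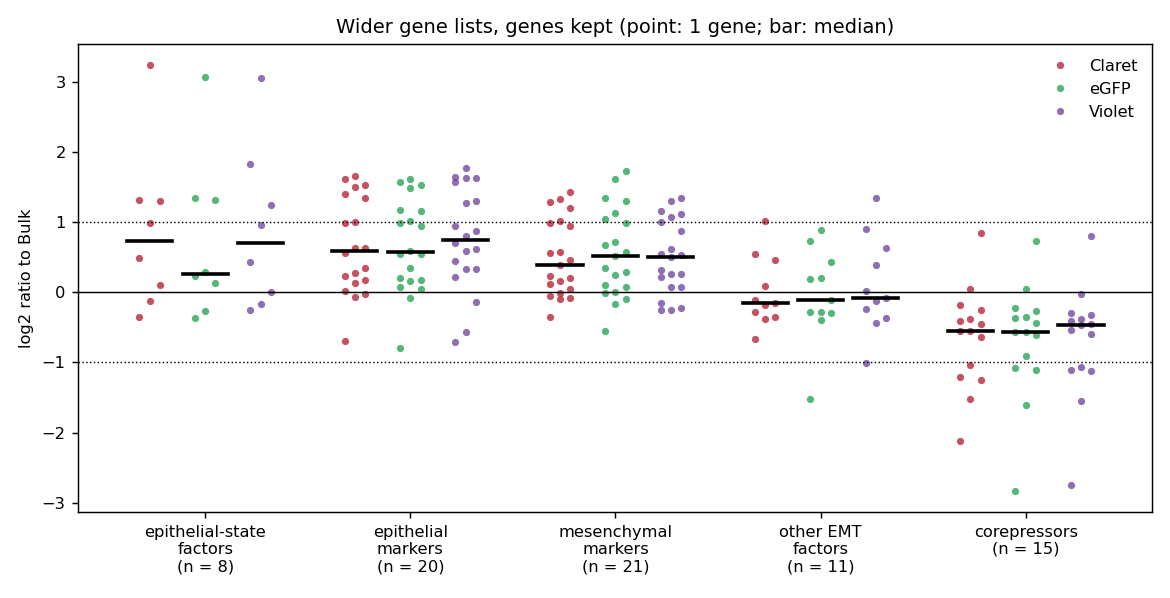
Log2 ratio to Bulk of the genes kept from 5 wider lists, in Claret, eGFP and Violet. Each point is 1 gene, black bars are medians and dotted lines mark a log2 ratio of 1 in size. Medians of the epithelial markers (0.57 to 0.75) and mesenchymal markers (0.39 to 0.52) lie above 0, and those of the corepressors (-0.57 to -0.46) below it.

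Other EMT transcription factors showed no common direction. Of 15, 11 were kept, and 1 was called higher in Claret, 1 lower in eGFP, and 1 higher and 1 lower in Violet. Among all genes 11.2% to 11.9% were higher and 6.67% to 7.6% lower, so these counts are near the background. The called genes were SNAI3, the third SNAIL family member, and PRRX1, a homeodomain factor, both named after their values were seen. SNAI3 had 20 reads (Bulk), 46 (Claret), 39 (eGFP) and 54 (Violet), with log2 ratios of 1.03, 0.89 and 1.35. PRRX1 had 32, 21, 10 and 15 reads, with -0.66, -1.51 and -1.01. The level of PRRX1 was under 1 CPM in eGFP and Violet, and it passed the minimum through Bulk and Claret, so its lower calls carry the same limit as the higher calls of ESRP1.

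Corepressors that SNAIL and ZEB proteins recruit to CDH1 were called in the lower direction alone. All 15 were kept, of which 5, 4 and 5 were lower in Claret, eGFP and Violet, and the medians were -0.54, -0.57 and -0.46. Among all genes 6.67% to 7.6% were called lower and 11.2% to 11.9% higher. SUV39H1, a histone H3 lysine 9 methyltransferase, had 273 reads in Bulk and fell to 66, 37 and 39, at log2 ratios of -2.12, -2.83 and -2.75. EZH2, the catalytic subunit of Polycomb repressive complex 2, had log2 ratios of -1.52, -1.60 and -1.55, and SUZ12 of the same complex -1.21, -1.11 and -1.06. CTBP2, a corepressor bound by the ZEB proteins, lay between -0.03 and 0.05. AJUBA lay the other way, with 1991 reads in Bulk, 3333 to 3872 elsewhere and log2 ratios of 0.85, 0.73 and 0.80, none called. The genes of cycling cells are also lower in these libraries, and their part in the corepressor values was not tested.

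With CDH1 and CDH2 not measurable, other classical cadherins and their partners were read. Of 15 other classical cadherins, 4 were kept. CDH4, R-cadherin, had 1052 reads (Bulk), 1679 (Claret), 1615 (eGFP) and 1361 (Violet), with log2 ratios of 0.57, 0.61 and 0.37. CDH24, a type II cadherin, had 1145, 750, 759 and 764 reads, with -0.71, -0.60 and -0.59, and CDH3, P-cadherin, was at 0.64, 0.55 and 0.70. Of these 3 none was called, and CDH10, with 11 to 28 reads, was called higher in Violet at 1.21. In Violet 11.3% of all genes were called higher, so 1 of 4 is not far from the background. CDH10 was under 1 CPM in Bulk, Claret and eGFP and passed the minimum level only through Violet, so it had to differ there.

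Catenins link cadherins to actin. CTNNA1, alpha-catenin, had log2 ratios of 0.29, 0.26 and 0.28, CTNNB1, beta-catenin, -0.26, -0.36 and -0.25, and CTNND1, p120-catenin, -0.17, -0.34 and -0.12. JUP, plakoglobin, had 1434 reads (Bulk), 3105 (Claret), 2779 (eGFP) and 2785 (Violet). Its log2 ratios of 1.01, 0.94 and 0.95 lay on both sides of the threshold, and of these only the Claret value was called. In Claret 11.2% of all genes were called higher, so 1 of the 4 catenins kept is not far from the background.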

How the data were processed

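RNA libraries of 4 sorted populations of 1 cell line were compared. The deposited count table holds raw read counts per gene, as whole numbers, per its values and the file headers. HISAT2 2.0.5 and featureCounts 1.5.0-p3 are named in the submitters' processing notes. Set against these counts, the deposited FPKM imply library totals of 96.9% to 104% of the summed counts. This is worked out from the values and is not a stated method of the authors. Start and end equal those of GENCODE 29 (GRCh38) for 58724 of 58735 genes. Handling of strand and of reads matching several genes is not given in the sources used here.

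Genes with a mean of at least 1 CPM were kept (14585). TMM scaling factors came from edgeR 4.0.16 (R 4.3.3), and log2 ratios used a prior count of 2. A quasi-likelihood fit needs replicates, which 1 library per group does not give, so reads of 2 libraries were compared by a two-sided exact conditional binomial test (scipy 1.17.1), with Benjamini-Hochberg adjustment over all genes kept. The scripts were tested on simulated counts that held counting error alone and changes well beyond the 2-fold threshold. That test does not cover variation between samples or calls near the threshold. Intervals are 95% exact (Clopper-Pearson for ratios of reads) and cover counting error only, since each group is 1 library. They take each read as independent. Reads carry no molecular identifiers, so copies of the same molecule cannot be told apart and the intervals may be too narrow. The alternatives were other scalings (summed counts, DESeq2 1.42.0 size factors), prior count, filters, thresholds, log2(FPKM + 1), a running median over 501 genes of like GC content, and groups from the treatment field.

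The members and the 10 wider lists (144 genes) were chosen with earlier results of these data known. Named from each list were the 3 higher and 3 lower protein-coding genes called in all 3 libraries, ranked by the smallest of their 3 log2 ratios in size, and, for a member called in all 3, the 2 genes nearest to it. Kept catenins and overlapping genes were also named. Other list genes are given with their values and were chosen after these were seen. Some genes that these rules name are not reported here.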

Additional observations from a re-analysis of the deposited data

Results flagged for a closer look

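CDH11 differed from Bulk in opposite directions between slow-cycling libraries, with intervals that exclude 0 on both sides. Its log2 ratio was -0.12 in Claret and -0.38 in eGFP, and 0.19 in Violet. All 3 share the Bulk library and none was called. Compared directly, eGFP lay below Violet by a log2 ratio of -0.57 (-0.67 to -0.48), under the 2-fold threshold. With 1 library per group the difference between the groups was not tested.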

How the results depend on the processing

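No replicate could be left out and no paired analysis was possible because each group holds 1 library. Scaling by summed counts or DESeq2 size factors and a prior count of 0.5 changed no call of a member, and scaling moved the median of all genes by at most 0.05. Summed counts turned ZEB1 in Claret against Violet to -0.019, and the GC correction turned ZEB2 in eGFP to 0.020. The GC correction left 1 member higher in Violet. On log2(FPKM + 1), which understates weakly expressed genes, members higher were 0 in Claret and 1 in Violet and members lower were 0 in Claret and eGFP. There, list genes higher were 8, 9 and 11 in Claret, eGFP and Violet, all genes higher 589, 633 and 533, and all genes lower 619 in Claret and 725 in eGFP. At a minimum of 10 CPM, which leaves SNAI2 out, 0 members were lower in Claret and eGFP. List genes higher were then 10 in Claret and 10 in Violet, list genes lower 3 in eGFP, all genes higher 615, 685 and 608, and all genes lower 634 in Claret. At 1.5-fold, 2 members were higher in eGFP and 1 was called for eGFP against Violet. List genes higher were then 25, 28 and 33, and lower 9 in Claret and 9 in eGFP, with 2870, 2981 and 2968 of all genes higher and 2408, 2585 and 2454 lower.

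Grouping by the treatment field, which takes the library titled Violet as un-gated, turned most values. SNAI1 was then at -1.18 in Claret, -0.14 in eGFP and 0.32 in Violet, SNAI2 at 0.53 in Claret, ZEB1 at -0.27 in Claret and -0.10 in Violet, and ZEB2 at 0.15 and 0.063. VIM was at -0.34 in Claret, FN1 at -1.08, -0.54 and -0.16, and CDH11 at -0.57 in Violet. Members higher were 0 in each library and members lower 2 in Claret and 0 in eGFP. List genes higher were 6, 0 and 1 and lower 18, 1 and 0, and all genes higher 1023, 33 and 42 and lower 1641, 82 and 94. List medians turned to -0.70 in Claret and -0.11 in Violet for epithelial-state factors, -0.75 and -0.14 for epithelial markers, and in Claret to -0.51 for mesenchymal markers, -0.53 for other cadherins and 0.46 for corepressors. Depth limits CDH1, CDH2 and TWIST1, with at most 3 reads in any library.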

Other observations

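Genes that set the stability of SNAIL protein, and TGF-beta receptors and SMADs of the pathway that induces SNAI1, were read as 2 further lists. Of 11 enzymes acting on SNAIL protein, 10 were kept and 0 were called in any library, where 17.9% to 19.5% of all genes were called in either direction, with a median of -0.05 for Claret, -0.01 for eGFP and -0.01 for Violet. FBXL14, an F-box protein of SNAIL turnover, had 455 reads in Bulk, against 319 to 323 in the slow-cycling libraries (log2 ratios -0.60, -0.52 and -0.51), while FBXL5, another such F-box protein, had 631 reads in Bulk and 1012 to 1157 elsewhere (0.77, 0.82 and 0.68). GSK3B, the kinase that marks SNAIL for degradation, lay between -0.12 and 0.05.

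All 7 TGF-beta receptors and SMADs were kept and 0 were called, beside the same 17.9% to 19.5% of all genes, which for lists this short is a difference of 1 or 2 genes. SMAD3, a receptor-activated SMAD, had 8588 reads (Bulk), 13042 (Claret), 14258 (eGFP) and 12394 (Violet), with log2 ratios of 0.50, 0.72 and 0.53. TGFBR2, the type II receptor, was at 0.67, 0.57 and 0.69. TGFBR1, the type I receptor, lay the other way, with 837 reads in Bulk, 608 to 703 elsewhere and log2 ratios of -0.36, -0.47 and -0.30. TGFBR3 lay between -0.11 and -0.07, and SMAD7 was at -0.27, 0.02 and 0.22. SMAD2 and SMAD4 lay between -0.17 and 0.06.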
